A study of Mus musculus with 8 samples.

Results

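Tumour lysates of the radiation-resistant line TC-1/IR were compared between 1 group of mice given rhIL-7-hyFc (IL-7) and 1 given buffer. They are 2 of the 8 samples of the series, chosen by their labels, and the comparison covered all 111 analytes of the antibody array. IL-7 is a cytokine of stromal cells that signals through the IL-7 receptor alpha chain and the common gamma chain. It sustains naive and memory T cells and developing lymphocytes, and rhIL-7-hyFc is a long-acting recombinant human form fused to a hybrid Fc. The array also reads proteins of neutrophils and monocytes, tumour cells, vessels and plasma.

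TC-1, a mouse epithelial tumour line, expresses the HPV16 oncoproteins E6 and E7, as does its radiation-resistant counterpart TC-1/IR. Both groups were female C57BL mice aged 10 weeks that carried subcutaneous tumours in the right thigh from 300000 TC-1/IR cells, and neither had been irradiated. The drug was injected under the skin at 50 µg per mouse on days 0 and 7, from a tumour volume near 100 mm3, reached 8 to 10 days after inoculation, and tumours were taken at the endpoint. The parental comparison used below differed in the tumour, grown from 100000 TC-1 cells, and the irradiated groups had received whole-body gamma rays at 2 Gy a day for 4 days.

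Each group had 1 membrane, so no difference between the groups has a p-value or a replicate check. The titles call the lysates pooled while the design text speaks of individual mice, which leaves unclear how many animals each membrane stands for. The array holds no defining marker of the epithelial tumour cell, so the tissue label could not be checked against one. Values are spot intensities in arbitrary units, each the mean of 2 duplicate spots with their SD, which covers technical error only. In a lysate of whole tumour, fewer cells of a type and less protein per cell cannot be told apart.

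The IL-7 membrane was brighter than the buffer membrane. Its analytes summed to 1495 units against 765 on the buffer membrane, a ratio of 1.95, and 48 against 38 analytes exceeded a floor of 2.49 units, which is 1% of the strongest analyte of the series. In the same line the irradiated membrane without the drug summed to 1473 units and the membrane with both treatments to 739. What set the brightness of a membrane was not tested. CD14, myeloperoxidase, osteopontin, fetuin A and pentraxin 2 together made up 64.0% of the net gain of 730.1 units. For the ratios, means under the floor were set to it, and a fold against such a value is a lower bound, written "at least". Of the 111 analytes, 53 exceeded the floor on 1 or both membranes, namely 33 on both, 15 on the IL-7 membrane alone and 5 on the buffer membrane alone.

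An analyte was called when its ratio reached 1.5-fold and its duplicate spots did not overlap between the membranes. By this rule 26 of the 53 measured analytes were higher after IL-7 (49.1%), 3 were lower (5.66%) and 24 were neither. The median log2 ratio over the 53 was 0.64, with 40 above 0 and 13 below. Because a membrane can be brighter as a whole, the ratios were also taken after median centring on the 28 analytes that exceeded the floor on every one of the 8 membranes. Centring took out a shift of 0.49 and raised the measured analytes to 59, of which 19 were called higher (32.2%) and 11 lower (18.6%). All 19 were among the 26, and the 3 lower analytes were called both times. Values were scaled before flooring, so where the buffer mean stayed at the floor only the 0.03 shift of the IL-7 membrane applied. Lipocalin-2 thus went from a log2 ratio of 1.40 to 1.38, and chitinase 3-like 1 from 1.56 to 1.53. The 7 higher calls that were bounds all stayed, and for them centring was a weak check on brightness. Under each of 3 ways of scaling the membranes, 8 analytes kept a higher call and 3 a lower one. All 3 scalings lowered the IL-7 membrane relative to buffer. The lower calls could therefore not be lost, and their persistence is no check on them. The 8 were myeloperoxidase, IL-1ra, CD14, complement factor D, fetuin A, chitinase 3-like 1, lipocalin-2 and CCL11, and the 3 were DPPIV, DKK-1 and CXCL16. Of the 8, chitinase 3-like 1, lipocalin-2 and CCL11 had buffer means under the floor.

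**Figure D1:**
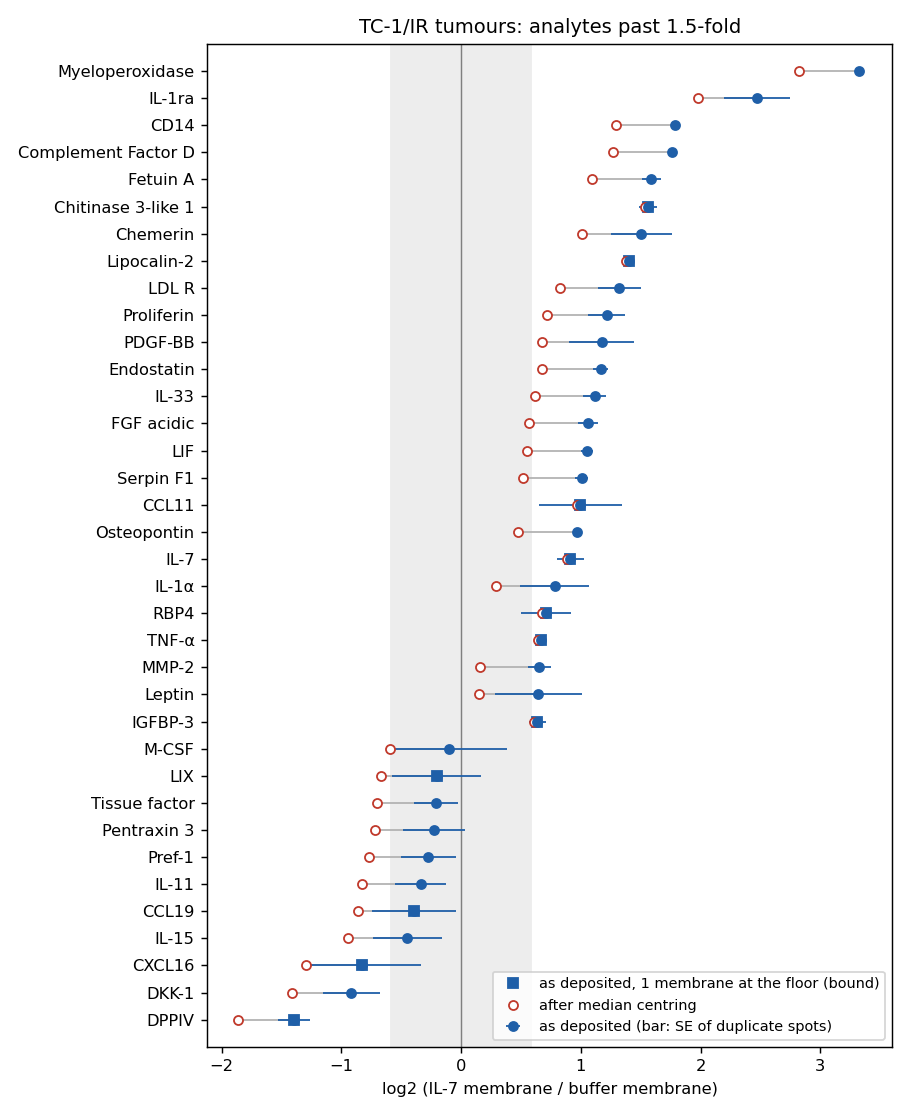
Log2 ratio of the IL-7 over the buffer membrane of TC-1/IR tumours for the reported analytes past 1.5-fold as deposited or after median centring (x axis; 1 analyte per line). Blue marks are deposited values with the SE of the duplicate spots, squares are bounds with 1 membrane at the floor, open red circles are centred values, and grey spans less than 1.5-fold; myeloperoxidase stands farthest to the right at 3.32 and DPPIV farthest to the left at -1.39.

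Products of neutrophils and other myeloid cells were the list with the highest median. Of 6 such analytes on the array 5 were measured, 4 were called higher and 0 lower, beside 49.1% higher among all measured analytes. Their median log2 ratio was 1.56 against 0.64 over all. After centring the same 4 were higher, beside 32.2% of all, pentraxin 3 was lower, and the median was 1.38 against 0.16. The summed signal of the 6 was 298 units on the IL-7 membrane and 66.4 with buffer. It was 184 after irradiation and 46.5 after both treatments in TC-1/IR, and from 116 to 168 on the 4 TC-1 membranes. CD14 made up most of each sum. In TC-1/IR it read 179 after IL-7, 51.8 with buffer, 166 after irradiation and 38.7 after both. How many neutrophils or monocytes each tumour held was not measured.

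Myeloperoxidase (Mpo, Entrez 17523), the peroxidase of azurophilic granules that makes hypochlorous acid, read 102 ± 1.75 after IL-7 and 10.22 ± 0.141 with buffer (SD of 2 spots). The ratio was 9.99-fold (log2 3.32, SE 0.02 from the spots), and 7.09-fold after centring. On the other TC-1/IR membranes it read 7.955 after irradiation and 4.075 after both treatments. In TC-1 it read 25.3 with buffer, 24.6 after IL-7, 9.105 after irradiation and 8.88 after both. The TC-1/IR IL-7 membrane thus stood above the other 7, which did not pass 25.3.

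Lipocalin-2 (Lcn2, Entrez 16819), a protein of specific granules that binds bacterial siderophores, read 6.59 ± 0.269 after IL-7 and 0.0455 ± 0.0629 with buffer. That is at least 2.65-fold higher, as the buffer value lay under the floor. It was under the floor on all 7 other membranes, at 0.21 and 0.185 on the irradiated TC-1/IR membranes and between 0.89 and 1.795 in TC-1. Only the TC-1/IR IL-7 membrane gave a lipocalin-2 signal above the floor.

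Chitinase 3-like 1 (Chil1, Entrez 12654), a chitin-binding lectin released by neutrophils and macrophages, read 7.35 ± 0.566 after IL-7 and 0.67 ± 0.0141 with buffer, at least 2.95-fold higher. It was 1.76 after irradiation and 1.5 after both treatments. In TC-1 it read 5.235 after IL-7 and 1.845 with buffer, at least 2.10-fold higher. CD14 (Cd14, Entrez 12475), the monocyte and macrophage coreceptor for endotoxin, read 179 ± 1.77 and 51.8 ± 1.07. The ratio was 3.46-fold (log2 1.79, SE 0.02), or 2.45-fold after centring. Irradiation alone left CD14 at 166 in TC-1/IR, close to the IL-7 membrane, and both treatments together at 38.7, under buffer. In TC-1 it was 132 with buffer and 100.5 after IL-7, so the lines ran in opposite directions for CD14, short of the rule in TC-1.

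The list did not move as a block. Pentraxin 3, a soluble pattern receptor stored in specific granules and made by macrophages, read 3.11 ± 0.382 after IL-7 and 3.635 ± 0.799 with buffer, and was called lower under all 3 scalings (1.65-fold after centring) but not as deposited. MMP-9, the gelatinase of tertiary granules, was at the value given to empty spots on both membranes (0.00105 units each) and under the floor on all 8. Neutrophil attractants gave little signal. Of 6 analytes with that role, CXCL1, CXCL2, G-CSF, GM-CSF and IL-17A were under the floor on both membranes. LIX (Cxcl5) read 1.145 ± 0.0778 after IL-7 against 2.87 ± 1.82, and was not called as deposited. It was called lower after centring, by at least 1.59-fold, with equal summed signals, with a floor of 0.5% and with the second spot alone.

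**Figure D2:**
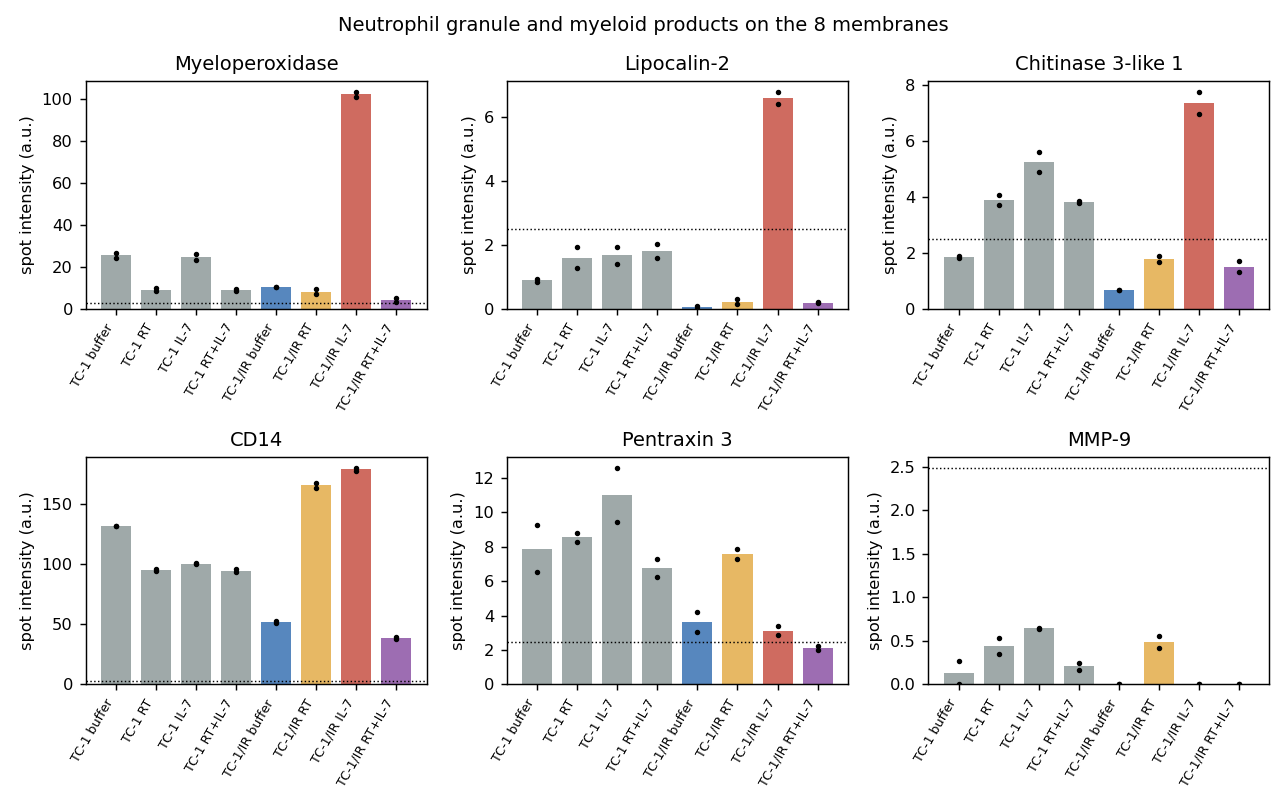
Spot intensity (y axis, arbitrary units, each panel on its own scale) of the 6 neutrophil granule and myeloid products on the 8 membranes (x axis). Bars are means of the duplicate spots, black dots the 2 spots, the dotted line the floor of 2.49; the TC-1/IR IL-7 membrane (red) is highest for myeloperoxidase, lipocalin-2, chitinase 3-like 1 and CD14, and not for pentraxin 3 or MMP-9.

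The promoters of 3 of the 4 members called higher are shown as examples, from RefSeq on GRCm38.p6, 250 bases before to 50 after the start site. The Cd14 promoter is not shown here. The array reads protein, and promoter activity was not measured. Capitals mark matches, on either strand, to TTGCNNAA, read here for C/EBP factors, and GAGGAA, read for PU.1, which are regulators of granule genes in the myeloid lineage. Among 32851 mouse promoters of 300 bases, 10.8% hold the first and 28.3% the second.
Mpo (chr11:87793534-87793833, plus strand): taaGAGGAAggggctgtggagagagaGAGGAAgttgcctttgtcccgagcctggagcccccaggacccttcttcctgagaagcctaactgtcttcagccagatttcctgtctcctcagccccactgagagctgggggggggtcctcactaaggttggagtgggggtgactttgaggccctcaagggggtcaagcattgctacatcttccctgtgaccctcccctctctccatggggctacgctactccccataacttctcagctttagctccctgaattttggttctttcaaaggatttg
Lcn2 (chr2:32387690-32387989, minus strand): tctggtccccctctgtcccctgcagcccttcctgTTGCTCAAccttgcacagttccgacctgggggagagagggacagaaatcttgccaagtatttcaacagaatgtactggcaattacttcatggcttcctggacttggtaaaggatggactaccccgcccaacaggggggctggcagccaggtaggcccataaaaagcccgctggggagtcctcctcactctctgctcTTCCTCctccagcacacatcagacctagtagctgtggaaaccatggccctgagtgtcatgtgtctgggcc
Chil1 (chr1:134181906-134182205, plus strand): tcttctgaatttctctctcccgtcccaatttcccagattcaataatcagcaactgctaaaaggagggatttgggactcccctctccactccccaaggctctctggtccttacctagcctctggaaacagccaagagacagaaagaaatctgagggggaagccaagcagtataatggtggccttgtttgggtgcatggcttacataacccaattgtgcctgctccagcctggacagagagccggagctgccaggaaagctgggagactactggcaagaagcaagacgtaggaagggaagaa
The Mpo window holds 2 GAGGAA matches, the Lcn2 window 1 match to each motif, and in the Chil1 window these letters were not found. A match describes the sequence and is no evidence of binding.

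Of the 6 measured cytokines that belong to the families of IL-1, TNF and IL-6, 5 were called higher and 0 lower, with a median log2 ratio of 0.92, beside 49.1% higher among all measured analytes. After centring 3 were higher, beside 32.2% of all, and 1 was lower, and under the other 2 scalings 1 was higher and 1 lower. IL-1ra (Il1rn, Entrez 16181), the antagonist that blocks the IL-1 receptor, read 22.9 ± 1.63 after IL-7 and 4.135 ± 1.07 with buffer. It read 19.7 after irradiation and 10.8 after both treatments. After IL-7 alone it was 5.54-fold higher (log2 2.47, SE 0.28), and 3.93-fold after centring. The agonists differed by less. IL-33, an alarmin of barrier cells, read 34.4 ± 1.24 against 15.89 ± 1.32, a 2.17-fold ratio. IL-1α read 4.675 ± 0.870 against 2.715 ± 0.912 (1.72-fold, log2 SE 0.29), and IL-1β was under the floor on both membranes.

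LIF, an IL-6 family cytokine, read 9.445 ± 0.332 after IL-7 and 4.565 ± 0.163 with buffer, a 2.07-fold ratio that was 1.47-fold after centring. TNF-α read 3.965 ± 0.0919 against 0.8 ± 0.424, at least 1.59-fold higher. IL-11 read 2.815 ± 0.445 against 3.555 ± 0.488 and was called lower after centring, by 1.78-fold, while IL-6 was under the floor on both membranes. Of this list, IL-1ra was the member called higher under every scaling.

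Plasma proteins made by liver had 3 of 4 measured members called higher, with a median log2 ratio of 1.11, and 3 of 6 after centring, beside 49.1% and 32.2% of all measured analytes. Fetuin A (Ahsg, Entrez 11625), a carrier of calcium phosphate in blood, read 125 ± 9.15 after IL-7 and 41.5 ± 0.460 with buffer, a 3.01-fold ratio (log2 1.59, SE 0.08), or 2.14-fold after centring. Chemerin (Rarres2), which attracts cells with the receptor CMKLR1, read 12.0 ± 2.89 against 4.24 ± 0.255, a 2.84-fold ratio. RBP4, the plasma carrier of retinol, read 4.065 ± 0.827 against 1.185 ± 0.106, at least 1.63-fold higher. Pentraxin 2 (Apcs), the brightest analyte, read 249 ± 0.06364 against 169 ± 9.36, which is 1.47-fold and 1.05-fold after centring. The 7 proteins summed to 391 units after IL-7 and 220.3 with buffer in TC-1/IR, and to 243 and 238 in TC-1. They summed to 336 after irradiation and 227 after both treatments in TC-1/IR, where fetuin A read 134.5 and 48.4. Angiopoietin-like 3, complement C5/C5a and C-reactive protein were under the floor on both TC-1/IR membranes. Their part in the other differences was not tested.

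Among products of fat tissue, complement factor D (Cfd, Entrez 11537), the protease that starts the alternative complement pathway, read 83.47 ± 2.87 after IL-7 and 24.6 ± 0.120 with buffer. The ratio was 3.39-fold (log2 1.76, SE 0.04), and 2.41-fold after centring. On the other TC-1/IR membranes complement factor D read 74.76 after irradiation and 26.3 after both treatments. Leptin read 5.125 ± 1.79 against 3.28 ± 0.0566, called higher as deposited (1.56-fold, log2 SE 0.36) and not after centring. Pref-1 (Dlk1) read 4.145 ± 0.389 against 5.01 ± 1.00, called lower under all 3 scalings but not as deposited. In all 3 of 4 measured members of this list were higher, 2 higher and 1 lower after centring, beside 49.1% and 32.2% higher among all measured analytes, while adiponectin and resistin, which define fat more narrowly, were under the floor on both membranes.

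Matrix and matricellular proteins were bright in both lysates. Of 5 measured, 4 were higher, with a median log2 ratio of 0.97, against 1 after centring, and 0 higher and 1 lower under the other 2 scalings. The share called higher over all measured analytes was 49.1% as deposited and 32.2% after centring, so 1 of 5 lay below it. Osteopontin (Spp1), an adhesive phosphoprotein of tumour and macrophages, read 174 ± 3.88 against 88.8 ± 0.686, a 1.96-fold ratio that became 1.39-fold after centring. Serpin F1 (PEDF), an inhibitor of vessel growth, read 158 ± 3.08 against 78.38 ± 3.85, or 2.01-fold. Endostatin, the collagen XVIII fragment that restrains vessels, read 23.13 ± 0.212 against 10.3 ± 0.636, a 2.25-fold ratio and the 1 of these still called after centring (1.59-fold). MMP-2 read 13.92 ± 1.07 against 8.84 ± 0.509 (1.57-fold) and turned to a log2 ratio of -0.31 with equal summed signals. Serpin E1, an inhibitor of plasminogen activators, read 10.12 ± 1.81 against 9.25 ± 1.71.

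Angiogenic growth factors had 3 of 4 measured members higher, 2 after centring and 0 under the other 2 scalings, beside 49.1% of all measured analytes as deposited and 32.2% after centring. Proliferin read 5.965 ± 0.629 against 2.57 ± 0.453 (2.32-fold), PDGF-BB 8.935 ± 1.65 against 3.96 ± 0.735 (2.26-fold) and FGF acidic 7.43 ± 0.311 against 3.555 ± 0.247 (2.09-fold). VEGF read 3.25 ± 0.212 after IL-7 and 2.065 ± 0.601 with buffer and was not called. Angiopoietin-1, angiopoietin-2, HGF and PD-ECGF were under the floor on both membranes. LDL R, a shed lipoprotein receptor, read 7.71 ± 1.26 against 3.085 ± 0.191, a 2.50-fold ratio, and was the 1 higher of 4 measured shed receptors and surface proteins, of which DPPIV was lower.

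**Figure D3:**
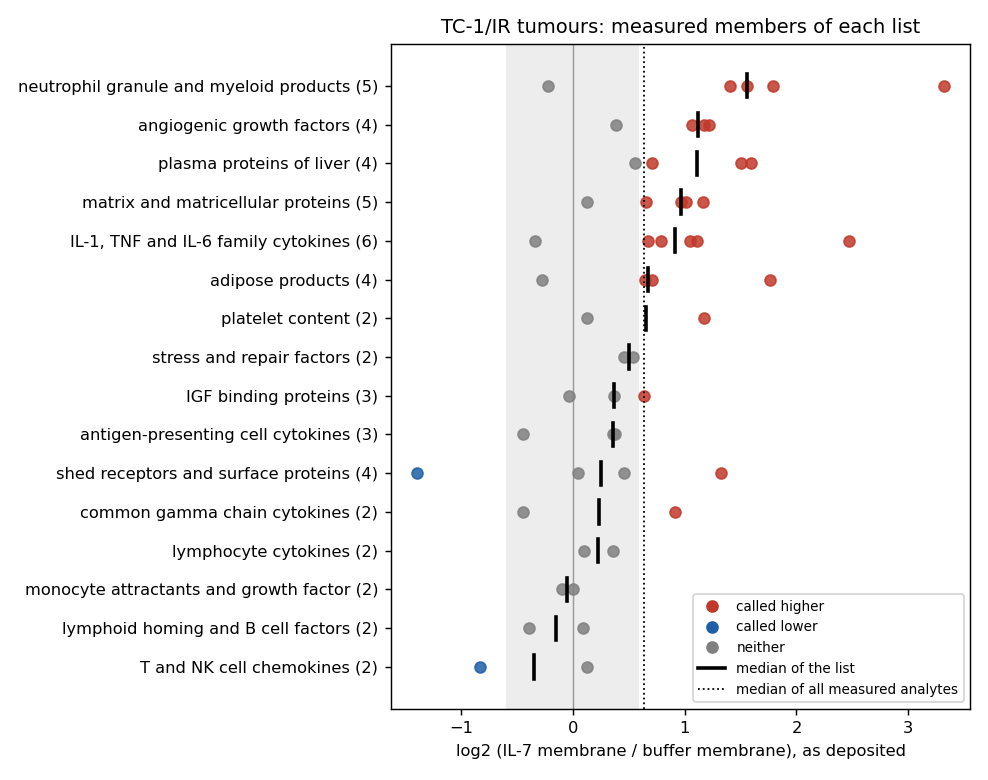
Log2 ratio of the IL-7 over the buffer membrane in TC-1/IR (x axis), as deposited, for the measured members of the 16 lists with at least 2 of them (y axis, number measured in parentheses). Points are analytes coloured by call, black ticks list medians, the dotted line the median of all measured analytes at 0.64 and grey the span under 1.5-fold; the medians run from 1.56 for neutrophil granule and myeloid products to -0.35 for T and NK cell chemokines, and some analytes are in several lists.

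Of 7 chemokines for T and NK cells only CXCL10 and CXCL16 were measured. As deposited 0 were called higher, beside 49.1% of all measured analytes, and CXCL16 was lower. CXCL10, an interferon-induced ligand of CXCR3, read 13.13 ± 0.764 after IL-7 and 12.0 ± 0.474 with buffer, a log2 ratio of 0.13 (SE 0.07), or -0.37 after centring. On both irradiated TC-1/IR membranes it was higher, at 27.45 after irradiation and 34.0 after both treatments. CXCL9, which shares that receptor, read 2.46 ± 0.693 against 1.24 ± 0.127, both under the floor. CCL5, CCL3/CCL4, CX3CL1 and CXCL11 were under it on both membranes as well.

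Of 9 lymphocyte cytokines only 2 were measured, and 0 of these were called. Over all measured analytes 49.1% were called higher as deposited and 32.2% after centring. IL-10, a cytokine that restrains myeloid and T cells, read 12.8 ± 0.332 against 9.955 ± 1.22, and IL-13 read 2.66 ± 0.113 against 2.465 ± 0.262. IFN-γ, IL-2, IL-3, IL-4, IL-5, IL-17A and IL-22 were under the floor on both membranes and could not be called. The cytokines of antigen-presenting cells had 0 of 3 measured members called as deposited, beside the same 49.1% higher over all. IL-12 read 6.105 ± 0.445 against 4.715 ± 0.940.

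The IL-7 reading (Il7, Entrez 16196) was 4.69 ± 0.523 on the membrane from drug-treated mice and 0.595 ± 0.219 with buffer, at least 1.88-fold higher. Irradiation without the drug gave 3.795 in TC-1/IR and both treatments gave 1.905, so membranes with and without the drug overlapped in this line. Both unirradiated TC-1 membranes were brighter, at 13.15 ± 1.70 without and 12.47 ± 0.354 with the drug. No source used here says whether the antibody also recognises the human protein. IL-15, the other measured common gamma chain cytokine, which sustains NK and memory T cells, read 5.8 ± 1.43 against 7.925 ± 1.04. It was called lower after centring, by 1.93-fold.

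CCL11 (eotaxin), which attracts eosinophils, read 4.96 ± 1.65 after IL-7 and 1.365 ± 0.445 with buffer, at least 1.99-fold higher. It was the only measured one of 3 chemokines of Th2 cells, Treg cells and eosinophils, with CCL17 and CCL22 under the floor. CCL19, a CCR7 ligand of lymphoid tissue, read 1.105 ± 0.120 against 3.265 ± 1.12 and was called lower after centring, by at least 1.81-fold. CCL20 read 2.645 ± 0.672 and 1.345 ± 0.06364, while CCL21, CXCL13, BAFF and Flt-3 ligand were under the floor on both membranes. M-CSF, the growth factor of macrophages, read 5.6 ± 2.36 against 5.995 ± 1.07 and passed the rule after centring, at 1.51-fold lower. Of 4 monocyte attractants and growth factors it was 1 of 2 measured. CCL6 was not called, and CCL2 and CCL12 were under the floor on both membranes.

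The remaining lists had few measured members. Their calls stand beside 49.1% higher over all measured analytes as deposited and 32.2% after centring. IGFBP-3 read 3.875 ± 0.276 against 1.58 ± 0.0849, at least 1.56-fold higher, the 1 call among 3 measured IGF binding proteins. Stress and repair factors had 0 of 2 measured members called, with amphiregulin at 3.615 ± 0.262 against 0.835 ± 0.686. PDGF-BB was the 1 higher of 2 measured analytes of platelet content, and P-selectin, EGF, CCL5 and angiopoietin-1 were under the floor. E-selectin was the 1 measured of 6 endothelial and adhesion molecules and read 4.295 ± 1.82 against 2.46 ± 1.61, with overlapping spots. Tissue factor, the initiator of coagulation, was in no list and read 29.3 ± 5.15 against 33.95 ± 1.36, lower after centring by 1.63-fold.

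The 3 analytes lower as deposited were each lower under every scaling, which was fixed in advance by the direction of the scalings. DPPIV (Dpp4, CD26; Entrez 13482), a surface peptidase that trims the amino end of chemokines such as CXCL10, read 1.88 ± 1.07 after IL-7 and 6.54 ± 0.806 with buffer. It was at least 2.63-fold lower, or at least 3.63-fold after centring. DPPIV was near the buffer level after irradiation alone, at 6.23 ± 2.39, and low after both treatments, at 2.145 ± 1.49. Both means from drug-treated mice of this line were under the floor. Their duplicate spots lay on either side of it, at 2.64 and 1.12 after IL-7 and 3.2 and 1.09 after both.

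DKK-1 (Dkk1, Entrez 13380), a secreted Wnt antagonist, read 4.61 ± 1.02 after IL-7 and 8.7 ± 0.580 with buffer, 1.89-fold lower (log2 -0.92, SE 0.24). It read 4.82 after irradiation and 4.88 after both, so the buffer membrane stood above the other 3. CXCL16 (Cxcl16, Entrez 66102), a transmembrane and shed ligand of CXCR6, read 1.91 against 4.425 ± 2.06, at least 1.78-fold lower (log2 SE 0.49). Its buffer spots were far apart, and with the first spot alone it was not called.

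The same drug in the parental line gave 29 of 91 measured analytes higher (31.9%) and 1 lower (1.1%), and after centring 17 of 81 higher (21%) and 1 lower (1.23%). The TC-1 membranes summed to 1449 units after IL-7 and 1204 with buffer, a ratio of 1.20. IL-1ra, chitinase 3-like 1, chemerin, CCL11 and FGF acidic were called higher in both lines, 5 analytes that were 19.2% of the higher calls of TC-1/IR and 17.2% of those of TC-1. After centring 4 were shared, 21.1% and 23.5%. Over all measured analytes, 49.1% were called higher in TC-1/IR and 31.9% in TC-1 as deposited. Some TC-1 calls, such as CCL12, CXCL9 and angiopoietin-2, were under the floor on both TC-1/IR membranes and could not be shared. The overlap is therefore no measure of a difference between the lines. IL-1ra was 102 after IL-7 and 47.7 with buffer in TC-1, so it was well above the TC-1/IR levels with and without the drug.

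As deposited, 4 analytes were called in opposite directions in the 2 lines. DPPIV was lower in TC-1/IR and higher in TC-1, where it went from 1.29 to 4.065, at least 1.63-fold. DKK-1 went from 4.62 to 10.3 in TC-1 (2.23-fold) and CXCL16 from 3.70 to 6.68 (1.81-fold). TNF-α, higher in TC-1/IR, was 5.27 after IL-7 against 8.31 in TC-1, 1.58-fold lower. After centring DKK-1, CXCL16 and TNF-α were still called in opposite directions, while DPPIV in TC-1 was at a log2 ratio of 0.27 and no longer called.

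**Figure D4:**
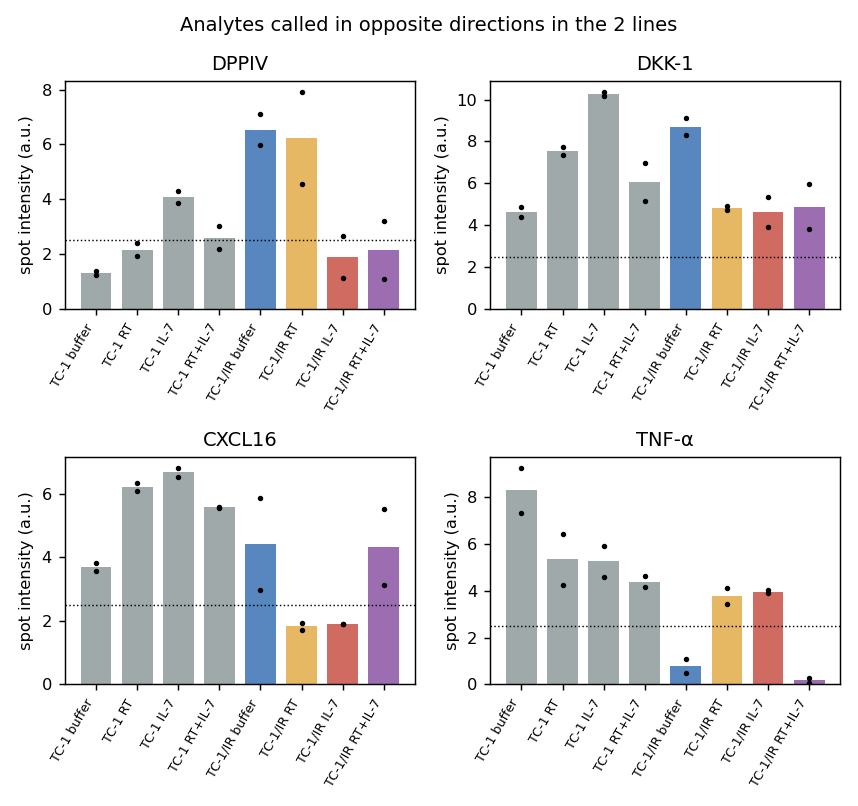
Spot intensity (y axis, arbitrary units, each panel on its own scale) of the 4 analytes called in opposite directions by IL-7 against buffer in the 2 lines, on the 8 membranes (x axis). Bars are means of the duplicate spots, black dots the 2 spots and the dotted line the floor of 2.49; in TC-1/IR the buffer membrane (blue) exceeds the IL-7 membrane (red) for DPPIV, DKK-1 and CXCL16, and in TC-1 the order is turned.

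Myeloperoxidase, CD14, fetuin A and complement factor D were not called in TC-1, with log2 ratios there of -0.04, -0.39, -0.17 and 0.52. Lipocalin-2 was under the floor in TC-1 with and without the drug, so its ratio there was not measured. Whether IL-7 acted differently in the 2 lines was tested with limma over all 8 membranes, with terms for line, irradiation and IL-7 and for line by irradiation and line by IL-7. This averages the IL-7 effect over irradiated and unirradiated tumours and has 2 residual degrees of freedom. With no replicate membranes, the interaction of irradiation with IL-7, and its difference between the lines, served as error. Limma SEs and p-values therefore mix departure from additivity with spread between membranes, and the design cannot separate them. Limma called 0 of 75 analytes (0%), with 1 at an unadjusted p under 0.05 and a smallest adjusted p of 0.982. That 1 was DPPIV, with a difference of -1.74 (SE 0.62), a limma p of 0.0247 and a limma adjusted p of 0.982. Next by p came angiopoietin-like 3 (-1.21, SE 0.64), CX3CL1 (-1.49, SE 0.85), CXCL2 (-1.31, SE 0.75) and serpin E1 (-1.78, SE 1.07). For myeloperoxidase the difference was 1.22 (SE 1.27), with a limma adjusted p of 0.982, and lipocalin-2 was above the floor on too few membranes to enter.

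Leaving out the TC-1/IR irradiated or combined membrane makes the fit compare IL-7 with buffer alone in TC-1/IR. The TC-1 effect is still averaged over irradiation, and the 1 residual degree of freedom is the TC-1 interaction of irradiation with IL-7. Limma then called 0 of 75, with 8 at an unadjusted p under 0.05 and a smallest adjusted p of 0.151. A difference between the lines was thus not shown for any analyte tested. With 1 or 2 residual degrees of freedom, these fits could not exclude such a difference either.

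**Figure D5:**
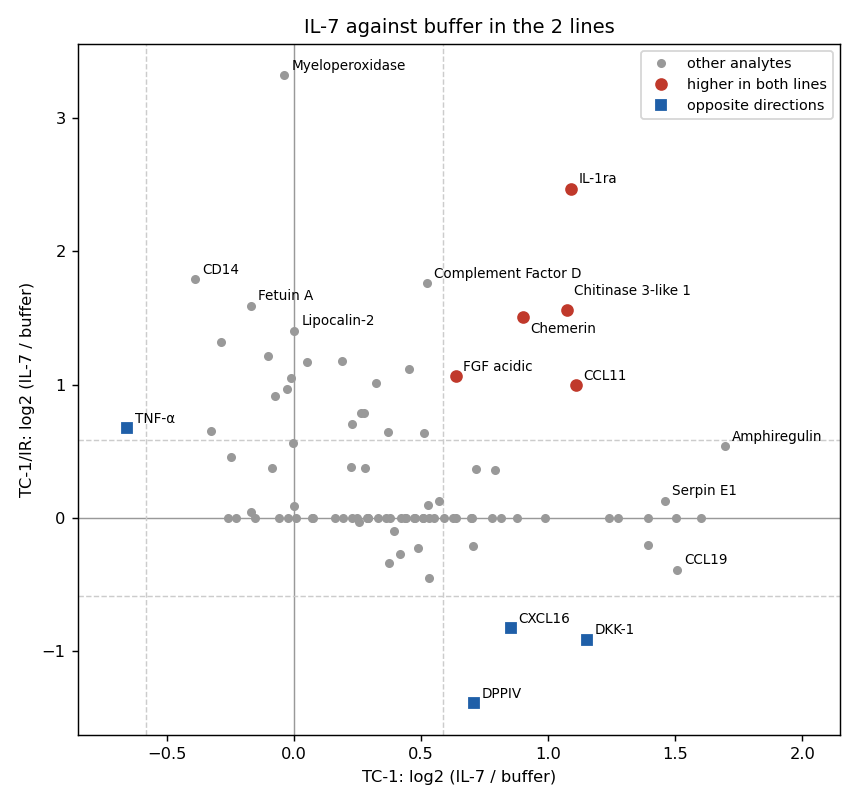
Log2 ratio of the IL-7 over the buffer membrane in TC-1/IR (y axis) against TC-1 (x axis), as deposited, for the reported analytes measured in either line. Dashed lines mark 1.5-fold, red points the 5 analytes called higher in both lines and blue squares the 4 called in opposite directions; many points lie on 0 for TC-1/IR because they were at the floor on both of its membranes.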

How the data were processed

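The deposited values are linear spot intensities from 8 membranes of a mouse cytokine antibody array, with 222 spots for 111 analytes, and were used as deposited. Lysates had been cleared at 10000 × g for 5 min, per the labels' protocols. No source used here gives the image software or the background removal. The combined table of the series held the same values (0 differed).

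Duplicate spots were averaged, and means under 1% of the highest analyte, rounded to 2.49, were set to that floor before log2. Scaled values were scaled first. Symbols came from Entrez identifiers (111 of 111 matched in RefSeq). Calls followed the 1.5-fold rule given above. Limma 3.58.1 in R 4.3.3 tested line by IL-7 on the 75 analytes that exceeded the floor on 4 or more of 8 membranes, with Benjamini-Hochberg adjustment. Python 3.11.15 did the rest. Scripts were tested on simulated data. Alternatives were 3 scalings, 3 other floors, a 2-fold threshold, single spots, no overlap rule and, for limma, other filters, terms and membranes left out.

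Named analytes were those called as deposited or after centring, the 5 smallest limma p, IL-7 and members of 19 lists by function. The comparison, lists and rules were chosen with earlier results of these data known. The values of 1 analyte called higher are not reported here. The number of arrays, 1 per group, limits the precision.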

Additional observations from a re-analysis of the deposited data

Results flagged for a closer look

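DPPIV, DKK-1, CXCL16 and TNF-α stood out because IL-7 against buffer went in opposite directions in the 2 lines, each past 1.5-fold with separate spots. Each direction rests on 1 pair of membranes. In TC-1/IR the call held in 9 of 10 alternatives for DPPIV and DKK-1, in 7 for CXCL16 and in 6 for TNF-α. For DPPIV, DKK-1 and CXCL16 the 3 scalings among these alternatives could not undo a lower call. The log2 ratio in TC-1/IR minus that in TC-1 was -2.10 for DPPIV, -2.07 for DKK-1, -1.68 for CXCL16 and 1.33 for TNF-α. The values for DPPIV, CXCL16 and TNF-α rest on a membrane set to the floor and are bounds, so these differences were at least that far from 0. The difference without irradiation was not tested on its own. Averaged over irradiation, limma gave differences of -1.74 (SE 0.62) for DPPIV, -0.87 (SE 0.75) for DKK-1, -0.36 (SE 0.78) for CXCL16 and 0.50 (SE 0.69) for TNF-α, each with an adjusted p of 0.982.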

How the results depend on the processing

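The count of higher calls in TC-1/IR, 26 as deposited, was 9 with centring on the analytes measured on both membranes, 9 with equal summed signals, 15 with a floor of 2% and 17 at 2-fold. The count of lower calls, 3 as deposited, was 11 with centring on all 8 membranes, 14 with centring on both, 20 with equal sums, 8 with a floor of 0.5%, 1 with a floor of 2%, 1 at 2-fold and 5 with the second spot alone. Higher calls were 89.7% of all calls as deposited, 63.3% and 39.1% with the 2 centrings and 31.0% with equal sums. In TC-1 the 29 higher calls became 17 and 16 with the 2 centrings, 16 with equal sums, 13 with a floor of 2% and 13 at 2-fold, and the 1 lower call became 6 with centring on both, 4 with equal sums and 0 at 2-fold. Leptin and MMP-2 reversed, to -0.14 and -0.13 with centring on both and to -0.32 and -0.31 with equal sums, and IL-1α to -0.18 with equal sums. The scalings differ by construction in the shift they remove, and which one fits these lysates was not tested. Limma called 0 for line by IL-7 under every alternative, leaving out each membrane included (0 to 0), with a smallest adjusted p of 0.0903 with an intensity trend and 0.151 to 0.696 without 1 membrane. Myeloperoxidase, IL-1ra, CD14, complement factor D and fetuin A were called in 10 of 10 alternatives. No paired analysis was possible because each group has 1 membrane and the labels give no replicate numbers.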

Other observations

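Spots at the value for no signal (0.001 or 0.0011) numbered 47 after IL-7 and 35 with buffer in TC-1/IR tumours, 9 after irradiation and 7 after both treatments, and 0 to 3 in TC-1. The 5 brightest analytes held 59.1% of the signal after IL-7 and 56.1% with buffer.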
